A study of Homo sapiens and Mus musculus with 21 samples.

Results

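A set of 29 genes of cholesterol synthesis, sterol sensing and sterol transport inside the cell was followed in mesothelioma cells, which come from a tumour of the pleural lining. The members were chosen by gene symbol from what is known of the pathway. No measured value entered the rule, but earlier results of these data were known when the choice was made. All 29 were found among the 60674 genes of each human count table, and their 29 orthologs among the 41214 genes of the mouse table. Every one of them passed the filter on low counts in all 3 tables. No receptor for circulating lipoprotein is among the 29, so uptake is represented here only by NPC1 and TMEM97, which act on cholesterol after it has entered the cell.

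Cholesterol is made from acetyl-CoA in the mevalonate pathway, whose isoprenoid intermediates also feed protein prenylation, ubiquinone and dolichol. Squalene is then formed, closed into lanosterol and trimmed to cholesterol. When membranes of the endoplasmic reticulum lose sterol, SCAP escorts the transcription factor precursor SREBP2 (gene SREBF2) to the Golgi for cleavage, and the released factor raises transcription of most genes of the pathway. When sterol returns, the INSIG proteins hold SCAP and SREBP2 in the endoplasmic reticulum, so that SREBF2, INSIG1 and the enzymes tend to move together in many cell types.

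The study compared cells with and without the deubiquitinase BAP1, a tumour suppressor often lost in mesothelioma, and cells with and without a drug against EZH2, the histone methyltransferase of Polycomb repressive complex PRC2. In the drug experiment the human lines H2731 (BAP1 mutated) and H2810 (BAP1 wildtype) received GSK126, an EZH2 inhibitor, or DMSO, its solvent, with 2 libraries per line and treatment. In the knockdown experiment MSTO-211H and H2810 carried a BAP1 hairpin (shBAP1 here) or a hairpin of random sequence, again with 2 libraries each. In the mouse, 3 libraries were of BNC cells, genotype Bap1-/-;Nf2-/-;Cdkn2ab-/-, and 2 of NC cells, genotype Nf2-/-;Cdkn2ab-/-, so that loss of Nf2 and Cdkn2ab was shared by both groups. All samples were cells labelled as pleura, each human line stands for 1 tumour, and only 1 BAP1 hairpin label was used. Drug dose, treatment times, hairpin sequences, the Cre driver of the mouse alleles and the number of mice behind the mouse lines are not given in the sources used here.

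Library totals were 17927837 to 22927239 counts in the drug table, 19707304 to 23217215 in the knockdown table and 13693927 to 22916482 in the mouse. Levels below are counts per 1e+06 of the scaled library size (CPM), and changes are log2 fold changes ± SE. A gene was called changed at an adjusted p under 0.05 (edgeR quasi-likelihood test, Benjamini-Hochberg over all genes of the table). Nothing in the labels says that replicate libraries came from separate cultures, so p-values measure only the spread between these samples, which may be technical. Among the human groups, the 2 libraries of each H2810 hairpin group stood furthest apart: their chi-square per degree of freedom was 17.9 with shBAP1 and 18.4 with the random hairpin, against 2.31 and 2.34 in MSTO-211H and at most 6.71 in the drug groups, while 1 shared spread served all groups of a table. The targeted gene BAP1 stood at 13.4 and 20.3 CPM in H2810 with shBAP1 and at 115 and 117 CPM with the random hairpin, a change of -2.79 ± 0.13 (adjusted p = 5.74e-08). In MSTO-211H it stood at 15.4 and 17.7 CPM with shBAP1 and at 100.1 and 103 CPM with the random hairpin (-2.61 ± 0.13, adjusted p = 6.07e-08). GSK126 acts on the EZH2 protein, and EZH2 transcript changed by 0.23 ± 0.06 in H2810 (adjusted p = 0.00315) and by -0.05 ± 0.04 in H2731 (adjusted p = 0.501), which does not check the treatment. Of 10 mesothelial markers, 5 reached 1 CPM in every library of each H2810 and MSTO-211H group, 6 in each H2731 group, 2 in BNC and 8 in NC, and UPK1B was at 0 in 7 of the 8 human groups. The T cell gene CD3E was at 0 in every human and mouse library, and 5 leukocyte markers summed to at most 7.26 CPM. As these are bulk libraries, fewer cells with a transcript and less of it per cell cannot be told apart.

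Levels within a library were compared per kilobase of annotated exon, since long genes collect more reads. In H2731 under DMSO the highest members were ACAT2 at 155, FDFT1 at 117, HMGCS1 at 71.7 and FDPS at 58.4 CPM per kilobase. In H2810 under DMSO the order began with SQLE at 54.9, MSMO1 at 38.8 and INSIG1 at 36.1 CPM per kilobase. MSTO-211H with the random hairpin had FDFT1 first at 49.5 and FDPS next at 37.6 CPM per kilobase. HSD17B7 and CYP51A1 were among the 3 lowest members in every one of these groups, at 2.799 and 3.22 CPM per kilobase in H2731 under DMSO. In NC mouse cells Cyp51, the ortholog of CYP51A1, ranked behind Tmem97 and Hmgcs1 alone by the same measure, at 33.9 CPM per kilobase. For human CYP51A1, 68.2% of exon bases lie under another gene model on the same strand (ENSG00000285772). Its human count may miss shared reads. HSD17B7, also low, shares no exon bases with another listed gene. Whether reads of either gene were missed was not tested. GGPS1 and EBP share 37.3% and 36.4% of their exon bases with a second gene model in the same way, and HMGCS1 overlaps an antisense model over 37.7%, ACAT2 opposite-strand genes over 20.9%, FDPS over 18.6%, TMEM97 over 12.3% and SREBF2 over 9.1%. Whether the counting used strand is a point the sources used here do not give.

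The promoters of the human members were read from RefSeq (GRCh38.p14), which held 26 of the 29 (not ACAT2, FDFT1 and SQLE), as 250 bases before to 50 after the start of the gene. Each was searched on both strands for letters like those of a sterol regulatory element (TCACNCCAC), an E-box (CACGTG) and an NF-Y box (CCAAT), chosen with the data already known. The string CCAAT lay in 20 of the 26 member promoters (76.9%), against 39.7% of 27305 genes, and its longer form GATTGGC in 11 (42.3%), against 7.78%. TCACNCCAC was found in 1 member, SREBF2, against 1.39% of genes, and CACGTG in 4 (LSS, SC5D, SCAP and INSIG1), against 8.77%. Other forms of these strings and the GC-rich string GGGCGG were searched as well. GGGCGG lay in 24 member promoters (92.3%), against 48.3% of genes, so the excess was not particular to CCAAT. Whether member promoters differ from the others in base content was not tested. These are matches of letters in a short window, not binding sites, and CCAAT is contained in the reverse complement of GATTGGC. 4 promoters are shown because their genes carry the comparisons below: the regulator SREBF2, the HMG-CoA synthase gene HMGCS1, and INSIG1 and INSIG2, which moved apart under BAP1 knockdown in H2810. Capitals mark the matches to TCACNCCAC, CACGTG and CCAAT, read on either strand, and INSIG2 holds none.
SREBF2, chr22:41832855-41833154, plus strand: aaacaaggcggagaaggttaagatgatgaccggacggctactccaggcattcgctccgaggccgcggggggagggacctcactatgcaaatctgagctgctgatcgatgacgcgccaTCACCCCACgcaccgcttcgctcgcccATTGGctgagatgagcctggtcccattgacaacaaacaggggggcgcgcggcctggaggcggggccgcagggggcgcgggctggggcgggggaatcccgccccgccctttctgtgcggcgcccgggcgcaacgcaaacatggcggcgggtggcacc
HMGCS1, chr5:43313363-43313662, minus strand: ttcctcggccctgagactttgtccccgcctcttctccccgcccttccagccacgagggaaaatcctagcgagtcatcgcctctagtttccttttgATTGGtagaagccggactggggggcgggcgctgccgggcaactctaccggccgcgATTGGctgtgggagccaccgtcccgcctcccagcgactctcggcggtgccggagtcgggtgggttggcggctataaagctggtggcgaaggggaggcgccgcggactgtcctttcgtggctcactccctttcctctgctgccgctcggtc
INSIG1, chr7:155297628-155297927, plus strand: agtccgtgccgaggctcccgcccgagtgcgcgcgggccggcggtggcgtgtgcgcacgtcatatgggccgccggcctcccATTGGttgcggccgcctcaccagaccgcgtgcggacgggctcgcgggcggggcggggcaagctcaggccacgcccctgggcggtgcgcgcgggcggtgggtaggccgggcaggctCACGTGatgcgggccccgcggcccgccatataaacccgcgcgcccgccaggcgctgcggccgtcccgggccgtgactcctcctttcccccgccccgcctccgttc
INSIG2, chr2:118088221-118088520, plus strand: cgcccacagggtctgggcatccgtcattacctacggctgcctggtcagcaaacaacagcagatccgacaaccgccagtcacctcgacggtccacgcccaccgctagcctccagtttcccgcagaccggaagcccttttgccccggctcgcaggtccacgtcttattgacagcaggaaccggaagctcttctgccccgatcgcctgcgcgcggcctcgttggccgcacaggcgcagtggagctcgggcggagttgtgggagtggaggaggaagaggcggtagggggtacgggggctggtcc

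The first comparison asked what EZH2 inhibition did in H2731, the BAP1-mutated line. With GSK126, 26 of the 29 genes rose and none fell, against 13.8% and 10.9% of all 15999 genes tested. The median change of the 29 was 0.52, while the median over all genes was 0. Summed over the 29, the level was 6538 and 6523 CPM with GSK126, against 4245 and 4175 CPM with DMSO. All 8 enzymes after lanosterol rose, as did all 3 from squalene to lanosterol, 5 of 6 of the mevalonate arm and all 4 of transport and storage. PMVK, GGPS1 and SCAP were not called.

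HMGCS1 had the largest change of the 29. The transcript of this HMG-CoA synthase stood at 1019.5 and 1027 CPM with GSK126 and at 470.2 and 479.8 CPM with DMSO. The 2 pairs lay far apart, a 2.15-fold difference (1.11 ± 0.03, adjusted p = 2.81e-14). The branch-point enzyme FDPS, which makes farnesyl diphosphate for sterols and for prenylation alike, rose by 0.78 ± 0.04 (adjusted p = 8.87e-12). IDI1, the isomerase that supplies dimethylallyl diphosphate, rose by 0.64, MVD by 0.62, the thiolase ACAT2 by 0.49 and mevalonate kinase MVK by 0.43. Phosphomevalonate kinase PMVK was at 16.1 and 15.3 CPM with GSK126 and 15.8 and 14.9 CPM with DMSO, with overlapping libraries (0.03 ± 0.08, adjusted p = 0.839).

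In the sterol-specific arm, squalene epoxidase SQLE, a rate-limiting step, stood at 302 and 297 CPM with GSK126 and at 197 and 206 CPM with DMSO (0.57 ± 0.04, adjusted p = 6.29e-10). Both treated libraries were above both controls. Squalene synthase FDFT1 rose by 0.48 and lanosterol synthase LSS by 0.64. After lanosterol, SC5D, which sets the ring double bond of lathosterol, stood at 140.3 and 139 CPM with GSK126 and at 80.1 and 78.8 CPM with DMSO (0.81 ± 0.04, adjusted p = 2.35e-11). The demethylase step genes MSMO1, HSD17B7, CYP51A1 and NSDHL rose by 0.82, 0.71, 0.64 and 0.45, the isomerase EBP by 0.52 and the terminal reductase DHCR7 by 0.67. The smallest called rise there was that of the reductase TM7SF2 at 0.17 (adjusted p = 0.0282), which DESeq2 did not call (adjusted p = 0.326) and which was lost without DMSO replicate 2 or either GSK126 library (0.12 to 0.20).

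Sterol sensing split by gene. INSIG1, itself a target of SREBP2, stood at 368 and 369 CPM with GSK126 and at 189 and 191 CPM with DMSO (0.95 ± 0.04, adjusted p = 4.62e-13). Its level was thus 1.94-fold that of the controls, far beyond the spread of the replicates. SREBF2 stood at 402 and 399 CPM with GSK126 and at 355 and 344 CPM with DMSO, a rise of 0.20 ± 0.03 (adjusted p = 0.000289). Both treated libraries were above both controls, by a far smaller step than for INSIG1. The escort gene SCAP stood at 49.7 and 46.4 CPM with GSK126 and at 55.1 and 51.1 CPM with DMSO (-0.15 ± 0.06, adjusted p = 0.0574). Its treated libraries lay below the controls, and it was called lower without DMSO replicate 2 (-0.20) or GSK126 replicate 1 (-0.20). INSIG2, whose human transcription does not follow SREBP2 as INSIG1 does, stood at 20.3 and 18.8 CPM with GSK126 and at 16.4 and 16.4 CPM with DMSO (0.25 ± 0.08, adjusted p = 0.0256). That call was lost with DESeq2 (adjusted p = 0.136) and without either DMSO library or GSK126 replicate 1, where the log2 fold change was 0.25, 0.25 and 0.19.

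Among carriers, STARD4, which moves sterol between membranes, stood at 141 and 136 CPM with GSK126 and at 71.4 and 72.5 CPM with DMSO (0.94 ± 0.04, adjusted p = 6.00e-12). The treated pair lay far above the control pair, as for INSIG1. NPC1, which exports cholesterol from lysosomes, rose by 0.47, its binding partner TMEM97 by 0.36 and SOAT1, which esterifies cholesterol for storage, by 0.37. The phosphatidate phosphatase LPIN1 and the retinol dehydrogenase RDH11, both known SREBP targets outside the pathway, rose by 0.76 and 0.37. Marker lists moved in the same libraries. Mesothelial markers, with UPK1B at 0, summed to 1180 to 1186 CPM with GSK126 and 1734 to 1901 CPM with DMSO (1 called higher and 2 lower of 7 tested), and leukocyte markers to 4.49 to 4.56 CPM with GSK126 and 6.93 to 7.26 CPM with DMSO (2 lower of 3). Of 10 proliferation genes none rose and 2 fell. The part of these lists in the results was not tested.

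**Figure D1:**
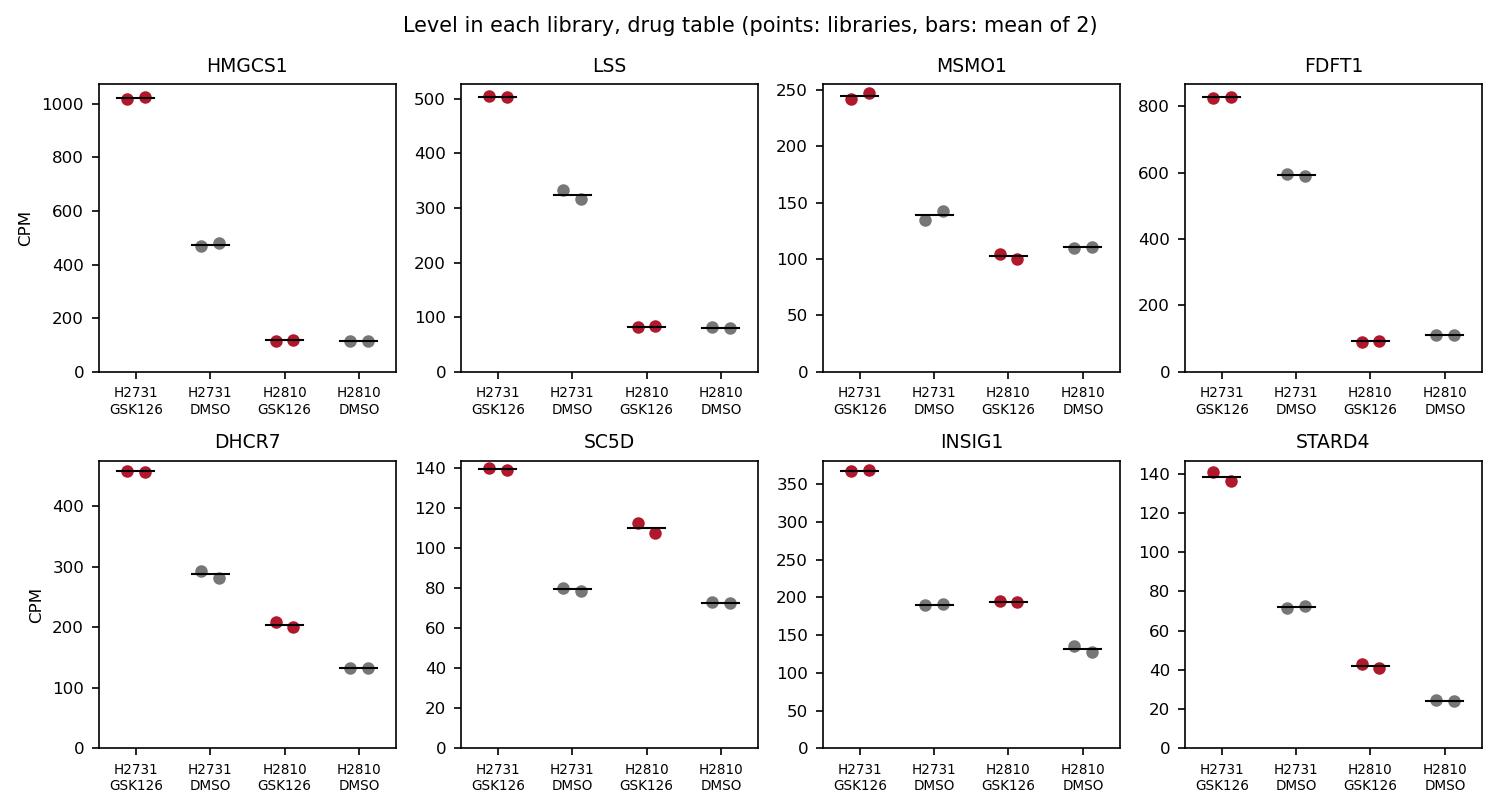
CPM of 8 genes in each library of the drug experiment (y axis, from 0), with H2731 and H2810 under GSK126 (red) and DMSO (grey); points are libraries and bars the mean of 2. HMGCS1, LSS, MSMO1 and FDFT1 lie higher with GSK126 in H2731 but level or lower in H2810, while DHCR7, SC5D, INSIG1 and STARD4 lie higher with GSK126 in both lines.

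In H2810, the BAP1-wildtype line, the response to GSK126 was smaller. Of the 29 genes 16 rose and 2 fell, against 16.3% and 12.9% of all genes, and the median change was 0.14. Falls were thus no more frequent than among all genes. Summed over the 29, the level was 2497 and 2475 CPM with GSK126 and 2169 and 2160 CPM with DMSO. All 4 genes of transport and storage rose, whereas in the mevalonate arm only IDI1 of 6 rose and ACAT2 fell. DESeq2 called 10 of the 29 higher and 1 lower.

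Among the enzymes, those of the last steps had the largest changes. DHCR7, the reductase that yields cholesterol, stood at 208 and 200.04 CPM with GSK126 and at 133 and 132 CPM with DMSO (0.62 ± 0.04, adjusted p = 2.34e-10). SC5D, the step just before it, stood at 113 and 108 CPM with GSK126 and at 73.02 and 72.8 CPM with DMSO (0.59 ± 0.04, adjusted p = 2.29e-09). For both, the treated libraries lay well clear of the controls. At the start of the pathway, HMGCS1 stood at 115 and 119 CPM with GSK126 and at 114 and 116 CPM with DMSO, with overlapping libraries (0.03 ± 0.04, adjusted p = 0.624). SQLE stood at 258 and 254 CPM with GSK126 and at 238 and 235 CPM with DMSO (0.12 ± 0.04, adjusted p = 0.0196), a call lost with DESeq2 (adjusted p = 0.0727) and without DMSO replicate 2 or either GSK126 library (0.11 to 0.13).

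FDFT1, the first enzyme committed to sterols, fell: it stood at 89.97 and 93.02 CPM with GSK126 and at 111 and 111 CPM with DMSO (-0.28 ± 0.04, adjusted p = 1.36e-05). ACAT2 stood at 77.8 and 77.4 CPM with GSK126 and at 83.2 and 85.8 CPM with DMSO (-0.12 ± 0.04, adjusted p = 0.0314), a fall that DESeq2 did not call (adjusted p = 0.144). Without the filter on low counts the fall was not called either (adjusted p = 0.0733). Leaving out DMSO replicate 2 or either GSK126 library also ended the ACAT2 call, at -0.10, -0.12 and -0.11. FDPS rose by 0.25 ± 0.04 and IDI1 by 0.19, both less than in H2731. Among enzymes not called, MVK, PMVK, MVD, GGPS1, LSS and EBP changed by 0.03 to 0.14, NSDHL by -0.03, MSMO1 by -0.11 and TM7SF2 by -0.26.

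Among the regulators, INSIG1 stood at 195 and 193 CPM with GSK126 and at 135 and 128 CPM with DMSO (0.56 ± 0.04, adjusted p = 1.05e-09). SREBF2 stood at 150.5 and 154 CPM with GSK126 and at 135 and 139 CPM with DMSO (0.15 ± 0.04, adjusted p = 0.00411), and was not called without GSK126 replicate 2 (0.14, adjusted p = 0.0595). INSIG1 thus stood far from its controls and SREBF2 close to them. SCAP stood at 132 and 141 CPM with GSK126 and at 146 and 148 CPM with DMSO (-0.10 ± 0.04, adjusted p = 0.0910). INSIG2 stood at 54.3 and 49.02 CPM with GSK126 and at 44.8 and 44.8 CPM with DMSO (0.21 ± 0.06, adjusted p = 0.0109), and its call was lost with DESeq2 and without GSK126 replicate 1 (0.13).

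STARD4 changed most of the 29 in H2810, by 0.78 ± 0.06 (adjusted p = 4.30e-09). LPIN1, which dephosphorylates phosphatidate on the way to triglyceride, stood at 154 and 151 CPM with GSK126 and at 99.6 and 105 CPM with DMSO (0.57 ± 0.04, adjusted p = 2.17e-09). SOAT1 rose by 0.36, TMEM97 by 0.21 and NPC1 by 0.15, and of these NPC1 was not called with DESeq2 (adjusted p = 0.0987) or without DMSO replicate 1 or either GSK126 library (0.11 to 0.16). Calls for CYP51A1, HSD17B7 and RDH11 were also lost with DESeq2, that of CYP51A1 also from the 2 groups alone (adjusted p = 0.0559). Left-out libraries that ended them were DMSO replicate 1 and GSK126 replicate 2 for CYP51A1 (0.31 and 0.23), both DMSO libraries and GSK126 replicate 1 for HSD17B7 (0.35 to 0.53), DMSO replicate 2 and both GSK126 libraries for RDH11 (0.07 to 0.15), and DMSO replicate 2 for TMEM97 (0.16). Other lists moved in the same libraries. Of 10 proliferation genes 6 rose and 2 fell, and of 4 tested fibroblast markers 3 rose and 1 fell, with a sum of 5413 to 5626 CPM with GSK126 and 5592 to 6427 CPM with DMSO. Mesothelial markers summed to 195 to 196 CPM with GSK126 and 232 to 241 CPM with DMSO, and endothelial markers, with CDH5 at 0, to 19.3 to 19.6 CPM with GSK126 and 11.2 to 11.5 CPM with DMSO. The part of these lists in the results was not tested.

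The difference between the lines was tested directly as an interaction. The response to GSK126 was higher in H2731 than in H2810 for 17 of the 29 genes and lower for none, against 8.08% and 6.66% of all genes. HMGCS1 differed by 1.08 ± 0.05 (adjusted p = 1.77e-11), MSMO1 by 0.93 ± 0.06 (adjusted p = 1.17e-09) and FDFT1 by 0.76 ± 0.05 (adjusted p = 2.16e-09). All 3 genes from squalene to lanosterol differed, as did 5 of 6 in the mevalonate arm. FDFT1 and ACAT2 were called in opposite directions, higher in H2731 and lower in H2810, which is 6.9% of the 29, against 2.28% of all genes. DESeq2 left FDFT1 alone with opposite calls, as did leaving out DMSO replicate 2 or either GSK126 library of H2810, while fits of the 2 groups of each line alone added MSMO1 (-0.11 in H2810, adjusted p = 0.0473).

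By contrast no difference was called for several genes that rose in both lines. DHCR7 differed by 0.05 ± 0.05 (adjusted p = 0.589), STARD4 by 0.16 ± 0.07 (adjusted p = 0.174) and SOAT1 by 0.01 ± 0.07 (adjusted p = 0.963), which does not show that they responded alike. SREBF2 differed by 0.04 ± 0.05 (adjusted p = 0.687) and INSIG1 by 0.39 ± 0.05 (adjusted p = 2.10e-05). TM7SF2 differed by 0.43 ± 0.15 (adjusted p = 0.0587), and was called without DMSO replicate 1 of H2731 (0.49, adjusted p = 0.0452). PMVK, GGPS1, CYP51A1, HSD17B7, SCAP, INSIG2 and TMEM97 were not called. The called differences of LPIN1 (0.19), MVK (0.37), RDH11 (0.23) and SC5D (0.22) were lost with DESeq2. LPIN1, MVK and RDH11 also lost theirs without any of 6 single libraries (0.15 to 0.41) and SC5D without DMSO replicate 2 of H2731 or GSK126 replicate 2 of H2810 (0.20 and 0.18).

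**Figure D2:**
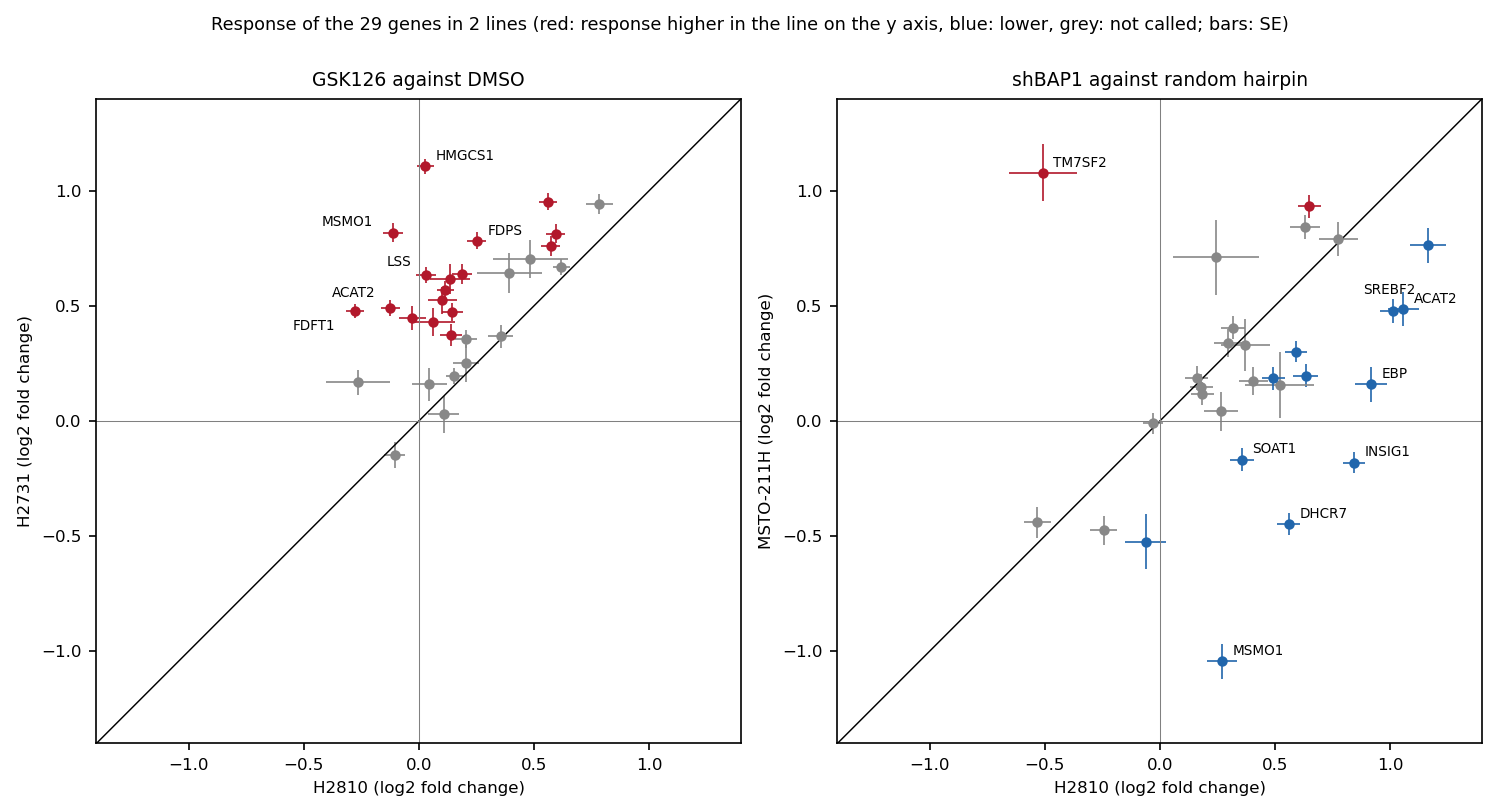
Log2 fold change ± SE of the 29 genes in H2810 (x axis) against a second line (y axis), for GSK126 in H2731 (left) and for shBAP1 in MSTO-211H (right); the diagonal marks equal responses. Left, 17 red points lie above the diagonal and none is blue; right, 12 blue points lie below it and 2 red above, with names at the larger called differences.

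Before any drug the lines already differed. Under DMSO, H2731 had 19 of the 29 genes higher than H2810 and 6 lower, against 41.5% and 40.7% of all genes, so that most genes of any kind were called between these lines. FDFT1 stood at 597 and 590.4 CPM in H2731 and at 111 and 111 CPM in H2810 (2.42 ± 0.04, adjusted p = 7.15e-22). ACAT2 stood at 417 and 401 CPM in H2731 and at 83.2 and 85.8 CPM in H2810 (2.28 ± 0.04, adjusted p = 5.23e-21). HMGCS1 stood at 470.2 and 479.8 CPM in H2731 and at 114 and 116 CPM in H2810 (2.05 ± 0.04, adjusted p = 1.25e-20). The libraries of the 2 lines did not overlap in any of the 3 genes, with FDFT1 5.35-fold and HMGCS1 4.14-fold higher in H2731, and the sterol reductase TM7SF2 had the largest ratio of the 29, 8.44-fold.

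Of the 6 members lower in H2731, 2 belong to sterol sensing and 2 are SREBP targets outside the pathway. SCAP stood at 55.1 and 51.1 CPM in H2731 and at 146 and 148 CPM in H2810 (-1.47 ± 0.05, adjusted p = 3.49e-16). INSIG2 stood at 16.4 and 16.4 CPM in H2731 and at 44.8 and 44.8 CPM in H2810 (-1.45 ± 0.07, adjusted p = 1.09e-13). The libraries of the lines were well apart in both genes. LPIN1 stood at 72.4 and 74.96 CPM in H2731 and at 99.6 and 105 CPM in H2810 (-0.47 ± 0.04, adjusted p = 3.84e-09), and PMVK, RDH11 and SQLE were lower as well (-0.67, -0.43 and -0.23). IDI1, GGPS1, NSDHL and EBP were not called. All 10 proliferation genes listed were higher in H2731, and fibroblast markers summed to 13.0 to 15.2 CPM there against 5592 to 6427 CPM in H2810, so line, BAP1 status and cell state cannot be told apart.

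BAP1 knockdown was examined next, first in H2810. With shBAP1, 23 of the 29 genes rose and 3 fell, against 22.5% and 23.3% of all 15872 genes tested. The median change was 0.37, while that of all genes was -0.03. Summed over the 29, the level was 1885 and 1845 CPM with shBAP1 and 1396 and 1423 CPM with the random hairpin. All 4 transport and storage genes, all 3 from squalene to lanosterol and 5 of 6 in the mevalonate arm rose, and INSIG2, TM7SF2 and LPIN1 fell.

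SREBF2 (chromosome 22, 41833079 to 41907307, GRCh38) stood at 143 and 132 CPM with shBAP1 and at 68.8 and 67.6 CPM with the random hairpin. The transcript of the master regulator thus was 2.02-fold the control level (1.01 ± 0.05, adjusted p = 1.49e-07). INSIG1 (chromosome 7, 155297776 to 155310235) stood at 74.7 and 76.2 CPM with shBAP1 and at 41.6 and 42.5 CPM with the random hairpin (0.84 ± 0.05, adjusted p = 2.89e-07). INSIG2 (chromosome 2, 118088452 to 118110997) went the other way, with 24.9 and 24.7 CPM with shBAP1 and 35.8 and 35.8 CPM with the random hairpin (-0.53 ± 0.06, adjusted p = 3.06e-05). The transcripts of the pair of retention proteins thus moved in opposite directions in these cells. SCAP stood at 137 and 139 CPM with shBAP1 and at 142 and 140.4 CPM with the random hairpin (-0.03 ± 0.04, adjusted p = 0.625).

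In the mevalonate arm, ACAT2 stood at 79.1 and 76.6 CPM with shBAP1 and at 35.2 and 39.7 CPM with the random hairpin (1.06 ± 0.07, adjusted p = 4.92e-07). HMGCS1 stood at 98.97 and 99.2 CPM with shBAP1 and at 61.2 and 65.2 CPM with the random hairpin (0.65 ± 0.05, adjusted p = 2.06e-06). Both genes were clearly above their controls. IDI1 rose most of the 29 (1.17 ± 0.08, adjusted p = 7.18e-07), though 15% of its exon bases lie under an antisense gene. MVK rose by 0.78, FDPS by 0.59 and MVD by 0.37, while PMVK was not called (-0.06), nor was HSD17B7 (0.24) after lanosterol. The MVD call was lost without shBAP1 replicate 2 (0.26).

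Later steps rose less evenly. SQLE stood at 182 and 175 CPM with shBAP1 and at 155 and 164 CPM with the random hairpin (0.16 ± 0.05, adjusted p = 0.0198), and lost its call in a fit of the 2 groups alone (adjusted p = 0.0739) and without random replicate 1 (0.12) or shBAP1 replicate 1 (0.14). SC5D stood at 57.1 and 56.3 CPM with shBAP1 and at 49.96 and 50.1 CPM with the random hairpin (0.18 ± 0.05, adjusted p = 0.0131), with no call by DESeq2 (adjusted p = 0.0567) or without shBAP1 replicate 1 (0.18). For both genes the knockdown libraries lay a little above the controls. The isomerase EBP had one of the larger rises (0.92), followed by FDFT1 (0.63), DHCR7 (0.56) and NSDHL (0.41). Without shBAP1 replicate 1 the calls of CYP51A1, GGPS1 and NPC1 were lost (0.37, 0.24 and 0.15), those of CYP51A1 and GGPS1 also with DESeq2 (adjusted p = 0.0862 and 0.0958), and without random replicate 1 that of MSMO1 (0.19). TM7SF2, a low-count reductase that shares its reaction with another enzyme, stood at 3.08 and 3.497 CPM with shBAP1 and at 4.98 and 4.33 CPM with the random hairpin (-0.51 ± 0.15, adjusted p = 0.0153). LPIN1 stood at 75.04 and 68.7 CPM with shBAP1 and at 86.5 and 83.6 CPM with the random hairpin (-0.24 ± 0.06, adjusted p = 0.00593). Neither fall was called by DESeq2 (adjusted p = 0.151 for TM7SF2 and 0.0544 for LPIN1), which left INSIG2 as the 1 member lower. Without a single library the falls were also lost, TM7SF2 without random replicate 1 (-0.40) or shBAP1 replicate 1 (-0.41) and LPIN1 without shBAP1 replicate 2 (-0.17).

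Of the carriers, STARD4 rose by 0.63 ± 0.07 (adjusted p = 1.69e-05), and SOAT1, TMEM97 and NPC1 by 0.36, 0.30 and 0.18. RDH11 rose by 0.49. Of 10 proliferation genes 7 were called higher and 1 lower in the same libraries, and fibroblast markers (1 higher and 3 lower of 5) summed to 4133 to 4793 CPM with shBAP1 and 5846 to 6428 CPM with the random hairpin. Mesothelial markers summed to 86.6 to 87.2 CPM with shBAP1 and 59.0 to 64.0 CPM with the random hairpin. The part of these lists in the results was not tested.

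**Figure D3:**
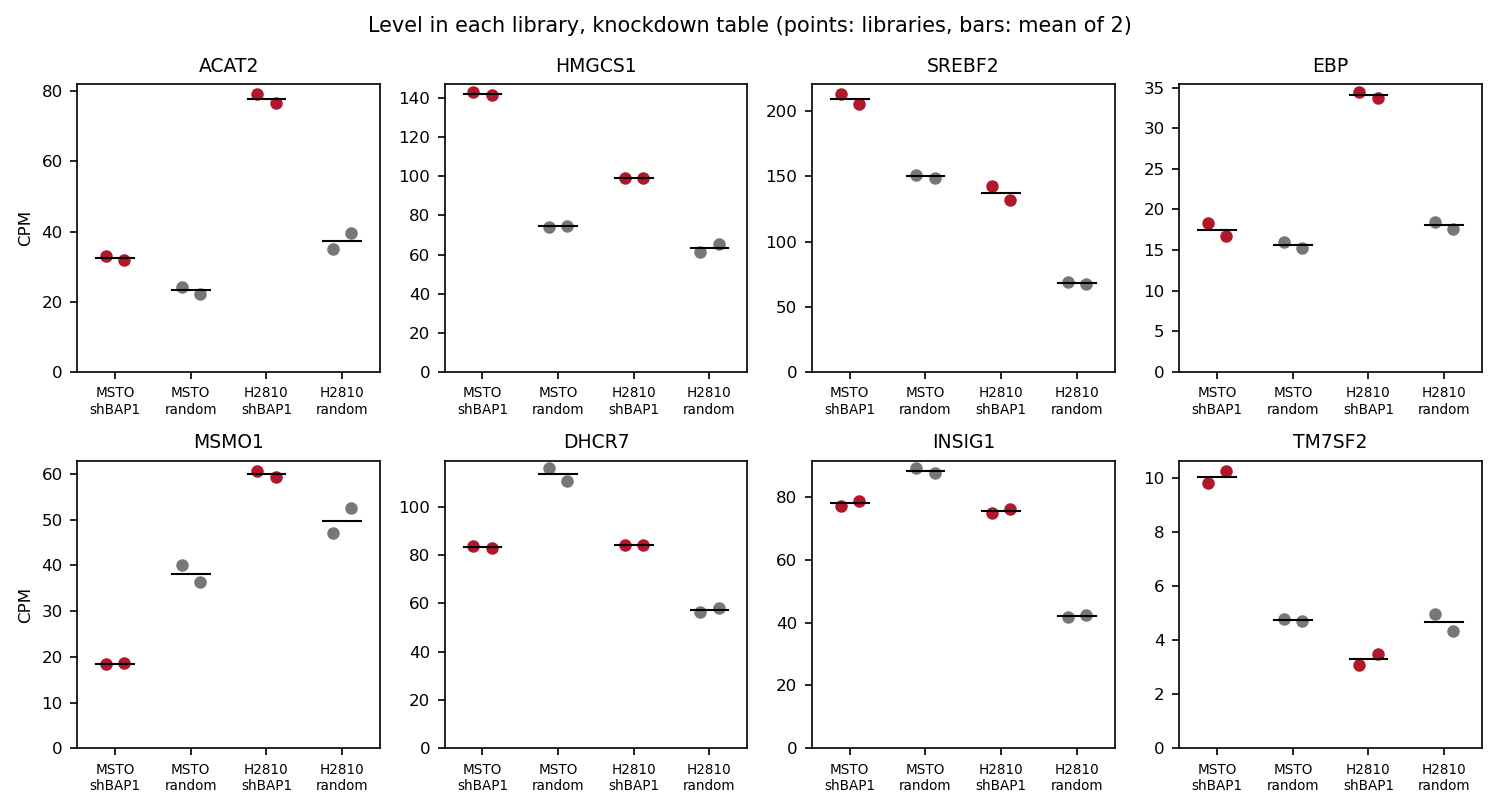
CPM of 8 genes in each library of the knockdown experiment (y axis, from 0), with MSTO-211H and H2810 under shBAP1 (red) and the random hairpin (grey); points are libraries and bars the mean of 2. ACAT2, HMGCS1 and SREBF2 lie higher with shBAP1 in both lines, whereas MSMO1, DHCR7 and INSIG1 lie higher with shBAP1 in H2810 and lower in MSTO-211H, and TM7SF2 does the reverse.

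In MSTO-211H members were called in both directions. With shBAP1, 17 of the 29 genes rose and 7 fell, against 21.7% and 24.5% of all genes, and the median change was 0.19. The rises were thus above the share of all genes and the falls near it. Summed over the 29, the level was 2021 and 2003 CPM with shBAP1 and 1742 and 1711 CPM with the random hairpin. The mevalonate arm rose in 5 of 6 genes, but MSMO1, DHCR7, PMVK, INSIG1, INSIG2, SOAT1 and LPIN1 fell.

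HMGCS1 stood at 143 and 142 CPM with shBAP1 and at 74.3 and 74.6 CPM with the random hairpin (0.93 ± 0.05, adjusted p = 1.05e-07). MVK stood at 34.1 and 30.8 CPM with shBAP1 and at 18.7 and 18.8 CPM with the random hairpin (0.79 ± 0.07, adjusted p = 7.13e-06). In both genes the knockdown libraries lay well above the controls. IDI1 rose by 0.76, ACAT2 by 0.49 and FDPS by 0.30, but PMVK fell to 5.68 and 7.14 CPM with shBAP1, against 8.803 and 9.69 CPM with the random hairpin (-0.52 ± 0.12, adjusted p = 0.00417).

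After lanosterol, MSMO1, which removes sterol methyl groups, stood at 18.4 and 18.6 CPM with shBAP1 and at 39.997 and 36.4 CPM with the random hairpin (-1.04 ± 0.08, adjusted p = 1.02e-06). DHCR7 stood at 83.6 and 82.8 CPM with shBAP1 and at 116 and 111 CPM with the random hairpin (-0.45 ± 0.05, adjusted p = 2.09e-05). Both fell beyond the spread of their libraries, and both had risen in H2810. TM7SF2 rose to 9.81 and 10.3 CPM with shBAP1, against 4.78 and 4.72 CPM with the random hairpin (1.08 ± 0.12, adjusted p = 3.36e-05), and HSD17B7 by 0.71. SQLE stood at 72.7 and 74.1 CPM with shBAP1 and at 64.4 and 64.6 CPM with the random hairpin (0.19 ± 0.05, adjusted p = 0.0131). SC5D stood at 42.3 and 42.5 CPM with shBAP1 and at 39.2 and 37.3 CPM with the random hairpin (0.15 ± 0.05, adjusted p = 0.0393). Neither call was made once any 1 of the 4 libraries was left out, with changes of 0.17 to 0.20 for SQLE and 0.11 to 0.19 for SC5D. The SC5D call was lost with DESeq2 (adjusted p = 0.138) and without the filter on low counts (adjusted p = 0.168) as well. LSS rose by 0.41, FDFT1 by 0.20 and NSDHL by 0.17. The NSDHL call was lost with DESeq2 (adjusted p = 0.127), without the filter on low counts (adjusted p = 0.102) and without any 1 library (0.14 to 0.21). That of FDFT1 was lost without shBAP1 replicate 1 (0.19) or random replicate 2 (0.18). In the mevalonate arm MVD rose by 0.33, lost without replicate 2 of either hairpin (0.18 and 0.24).

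For the regulators, SREBF2 stood at 213 and 205 CPM with shBAP1 and at 151 and 149 CPM with the random hairpin (0.48 ± 0.05, adjusted p = 2.22e-05). INSIG1 stood at 77.2 and 78.5 CPM with shBAP1 and at 88.99 and 87.4 CPM with the random hairpin (-0.18 ± 0.05, adjusted p = 0.00866). Here the regulator rose while its target INSIG1 fell slightly. That fall was not called by DESeq2 (adjusted p = 0.136) or without the filter on low counts (adjusted p = 0.0907). It was also lost without random replicate 1 (-0.17) or shBAP1 replicate 1 (-0.16). INSIG2 stood at 16.02 and 15.6 CPM with shBAP1 and at 21.96 and 20.8 CPM with the random hairpin (-0.44 ± 0.07, adjusted p = 0.000273). SCAP stood at 112 and 111 CPM with shBAP1 and at 113 and 112 CPM with the random hairpin, with overlapping libraries (-0.01 ± 0.05, adjusted p = 0.908).

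STARD4 stood at 102 and 104 CPM with shBAP1 and at 58.8 and 56.3 CPM with the random hairpin (0.84 ± 0.05, adjusted p = 2.86e-07). LPIN1 stood at 40.3 and 42.3 CPM with shBAP1 and at 59.2 and 55.6 CPM with the random hairpin (-0.47 ± 0.06, adjusted p = 0.000100). The sterol carrier thus rose and the phosphatase fell, each outside the range of its controls. TMEM97 rose by 0.34 and RDH11 by 0.19, the RDH11 call being lost without either shBAP1 library or random replicate 1 (0.17 to 0.19). SOAT1 fell by 0.17, a call lost under RLE scaling (adjusted p = 0.0762) and with DESeq2 (adjusted p = 0.259). The SOAT1 call was also lost without the filter on low counts (adjusted p = 0.163) and without any 1 of the 4 libraries (-0.19 to -0.14). NPC1 was not called (0.12, adjusted p = 0.0769), though it was with RLE scaling (0.15, adjusted p = 0.044) and from the 2 groups alone (0.13, adjusted p = 0.00814). GGPS1 (0.04), CYP51A1 (0.16) and EBP (0.16) were not called either. Mesothelial markers summed to 380 to 389 CPM with shBAP1 and 286 to 302 CPM with the random hairpin. Fibroblast markers, of which 3 of 5 were called lower, summed to 55.3 to 56.4 CPM with shBAP1 and 87.1 to 101 CPM with the random hairpin. Leukocyte markers, with CD3E at 0, had 2 called higher and 1 lower of 3 tested and summed to 3.17 to 3.22 CPM with shBAP1 and 0.868 to 1.15 CPM with the random hairpin. The part of these lists in the results was not tested.

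The interaction test of the knockdown asked whether the lines responded differently. The change in MSTO-211H was lower than that in H2810 for 12 of the 29 genes and higher for 2, against 16.5% and 11.2% of all genes. INSIG1 differed by -1.02 ± 0.07 (adjusted p = 2.14e-06), DHCR7 by -1.01 ± 0.07 (adjusted p = 2.58e-06) and MSMO1 by -1.31 ± 0.10 (adjusted p = 5.39e-06). TM7SF2 differed by 1.59 ± 0.19 (adjusted p = 0.000132) and HMGCS1 by 0.28 ± 0.07 (adjusted p = 0.0112), the 2 genes with a higher change in MSTO-211H. SREBF2 itself rose less in MSTO-211H, with a difference of -0.53 ± 0.07 (adjusted p = 0.000344). The HMGCS1 difference was lost with DESeq2 (adjusted p = 0.0535), without a filter on low counts (adjusted p = 0.114) and without random replicate 2 of H2810 (0.20) or shBAP1 replicate 1 of MSTO-211H (0.27). The PMVK difference (-0.46) was not called by DESeq2 (adjusted p = 0.15) or without any of 5 single libraries (-0.54 to -0.32), and that of IDI1 (-0.40) was lost without shBAP1 replicate 2 or either random library of MSTO-211H (-0.42 to -0.37). NSDHL was not called (-0.23) but was without random replicate 1 of H2810 (-0.30).

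Across the knockdowns, 15 genes rose in both lines, out of the 23 that rose in H2810 and the 17 that rose in MSTO-211H, 2 fell in both (INSIG2 and LPIN1) and 5 (17.2%) were called in opposite directions (DHCR7, INSIG1, MSMO1, SOAT1 and TM7SF2). Among all genes 11% rose in both lines, 11.2% fell in both and 4.28% were called in opposite directions. Of the 5, DESeq2 called DHCR7 and MSMO1 alone in opposite directions, and without the filter on low counts TM7SF2 joined them. The 15 became 10 without random replicate 2 or either shBAP1 library of MSTO-211H, and the 5 became 3 without random replicate 1 of either line or shBAP1 replicate 1 of MSTO-211H. Control cells also differed: with the random hairpin, 14 of the 29 genes were higher in MSTO-211H than in H2810 and 12 lower, against 39% and 40.7% of all genes. Most genes of any kind were thus called between these lines, and the 12 lower were near the share of all genes. DESeq2 did not call CYP51A1 (0.38), NPC1 (0.14), EBP (-0.20), MVD (-0.32) or RDH11 (-0.17). CYP51A1 and EBP were also lost without any single library (0.34 to 0.44 and -0.23 to -0.16), and NPC1, MVD and RDH11 without some. HSD17B7 was gained without the filter on low counts (0.43) and TMEM97 from the 2 groups alone (0.14). FDFT1 stood at 254 and 249 CPM in MSTO-211H and at 61.3 and 66.4 CPM in H2810 (1.98 ± 0.05, adjusted p = 2.18e-11). STARD4 stood at 58.8 and 56.3 CPM in MSTO-211H and at 16.4 and 15.3 CPM in H2810 (1.86 ± 0.06, adjusted p = 1.07e-10). INSIG1 was also higher in MSTO-211H (1.07), at 88.99 and 87.4 CPM there and 41.6 and 42.5 CPM in H2810. The libraries of the lines did not overlap for any of these 3 genes. SQLE stood at 64.4 and 64.6 CPM in MSTO-211H and at 155 and 164 CPM in H2810 (-1.31 ± 0.05, adjusted p = 5.43e-10). PMVK stood at 8.803 and 9.69 CPM in MSTO-211H and at 22.02 and 23.1 CPM in H2810 (-1.29 ± 0.10, adjusted p = 2.26e-07), and INSIG2 was likewise lower in MSTO-211H (-0.74).

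Over the 4 human responses, 8 genes (27.6% of the 29) were called higher in each: SREBF2, IDI1, FDPS, SQLE, SC5D, STARD4, TMEM97 and RDH11. Of 14978 genes tested in both tables, 0.628% were. With DESeq2 5 of the 8 were left (SREBF2, IDI1, FDPS, STARD4 and TMEM97). RDH11, SC5D and SQLE were likewise lost without random replicate 1 or either shBAP1 library of MSTO-211H. Libraries of H2810 changed the set otherwise. Without DMSO replicate 2 of H2810, RDH11, SQLE and TMEM97 were lost and SC5D stayed. Without GSK126 replicate 2 of H2810, RDH11, SQLE and SREBF2 were lost and SC5D stayed. STARD4 changed by 0.63 with shBAP1 in H2810, 0.84 with shBAP1 in MSTO-211H, 0.78 with GSK126 in H2810 and 0.94 with GSK126 in H2731. SQLE, by contrast, changed by 0.16, 0.19, 0.12 and 0.57 in the same order. SCAP was called in none of the 4. INSIG2 and LPIN1 fell with shBAP1 in both lines and rose with GSK126 in both. Each of the other members that fell was called lower in 1 response, apart from MSMO1, which fell in MSTO-211H and was also called lower with GSK126 in H2810 from the 2 groups alone (-0.11).

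**Figure D4:**
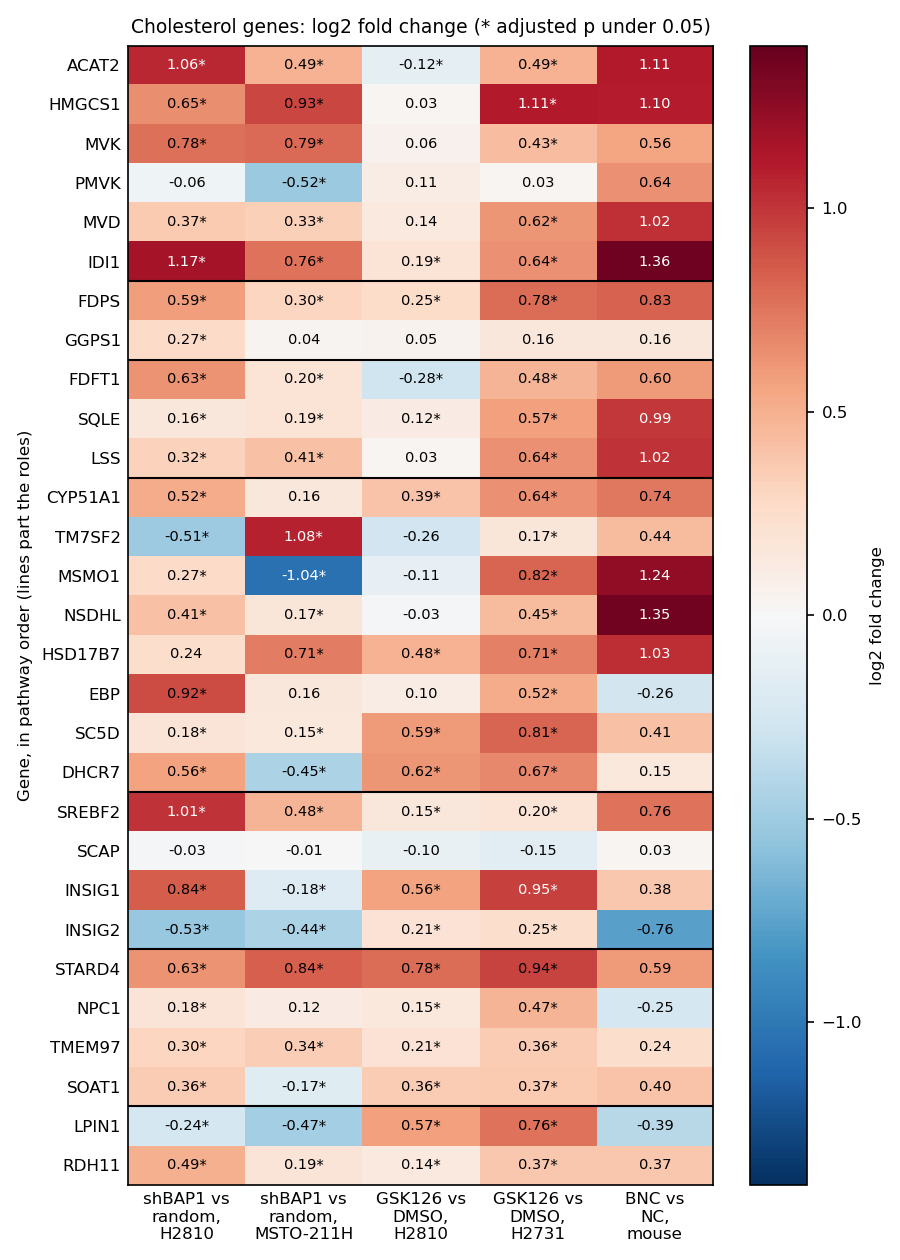
Log2 fold change of each of the 29 genes (rows, in pathway order) in the 4 human responses and in the mouse comparison (columns); colour and number give the change, and an asterisk marks an adjusted p under 0.05. With GSK126 in H2731, 26 cells are called and all are positive, the 2 knockdown columns mix signs after lanosterol, and the mouse column is mostly positive with no call.

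Neighbouring gene lists, none of whose genes is a member, are set beside the shares of all genes called higher and lower: 22.5% and 23.3% with shBAP1 in H2810, 21.7% and 24.5% in MSTO-211H, 16.3% and 12.9% with GSK126 in H2810, and 13.8% and 10.9% in H2731. Of 11 targets of the fatty acid arm of SREBP signalling, 6 rose and 3 fell with shBAP1 in H2810, 5 rose and 2 fell in MSTO-211H, 8 rose and 1 fell with GSK126 in H2810, and 9 rose and none fell with GSK126 in H2731. SCD, a stearoyl-CoA desaturase, rose by 1.09 ± 0.03 with GSK126 in H2731 and by 0.89 ± 0.03 in H2810, and FADS1, a fatty acid desaturase, by 0.75 ± 0.05 with shBAP1 in H2810 and 0.39 ± 0.05 in MSTO-211H. Among 9 tested genes of oxysterol signalling and efflux, 5 rose and none fell with GSK126 in H2810, while 1 rose and 2 fell in H2731. ABCA1, which exports cholesterol, had opposite calls, lower in H2731 (-1.54 ± 0.25, adjusted p = 0.000142) and higher in H2810 (2.38 ± 0.09, adjusted p = 3.46e-13). With shBAP1 this list had 1 higher and 5 lower in H2810 and 2 higher and 4 lower in MSTO-211H. NR1H2, the oxysterol receptor LXR beta, changed by -1.07 ± 0.07 in H2810 and -0.66 ± 0.07 in MSTO-211H.

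Of 12 genes that prepare or degrade the SREBP machinery, 3 rose and 2 fell with shBAP1 in H2810, near the shares of all genes, and 4 rose and 4 fell in MSTO-211H, and 1 rose and 2 fell with GSK126 in H2810 and 1 rose and 1 fell in H2731. ERLIN1, an endoplasmic reticulum protein that takes part in the sterol-driven degradation of pathway proteins, fell in both knockdowns (-1.44 ± 0.06 in H2810, adjusted p = 3.07e-08, and -1.82 ± 0.07 in MSTO-211H, adjusted p = 1.48e-08). Of 12 other sterol transport genes, 3 rose and 5 fell with shBAP1 in H2810, 1 rose and 8 fell in MSTO-211H, 4 rose and 3 fell with GSK126 in H2810, and 6 rose and none fell in H2731. STARD3, a late endosomal sterol carrier, fell with shBAP1 (-1.41 ± 0.08 in H2810 and -1.73 ± 0.10 in MSTO-211H), opposite to STARD4. NPC2, the lysosomal partner of NPC1, rose with GSK126 in H2731 (0.62 ± 0.04) and in H2810 (0.40 ± 0.04) and fell with shBAP1 in H2810 (-0.71 ± 0.06). Of 9 tested helper and alternative sterol enzymes, 4 rose and none fell with shBAP1 in H2810, 3 rose and 1 fell in MSTO-211H, 2 rose and 2 fell with GSK126 in H2810, and 4 rose and none fell in H2731. Of 13 genes that use isoprenoids outside sterols, 7 rose and 2 fell with shBAP1 in H2810 and 4 rose and 1 fell in MSTO-211H, while 2 rose with GSK126 in H2810 and 1 fell in H2731. ERG28, known from yeast as a scaffold of the sterol demethylation complex, rose with GSK126 in H2731 (0.65 ± 0.05) and with shBAP1 in H2810 (0.89 ± 0.07).

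In the mouse, BNC cells, labelled Bap1-/-, were compared with NC cells, which carry no Bap1 deletion in their label. No gene of 12225 tested was called, so 0% passed in either direction and no member could be set against a background of calls; 823 genes had an unadjusted p under 0.05. The median change of the 29 was 0.59, against 0.03 over all genes. In 17 of the 29 every BNC library was above both NC libraries and in 2 below them, where 11.2% and 12.8% of all genes were so placed. Summed over the 29, the level was 3522, 3524 and 3385 CPM in BNC and 2032 and 2141 CPM in NC. Bap1 stood at 30.5, 33.3 and 44.1 CPM in BNC and 60.2 and 62.01 CPM in NC (-0.76 ± 0.23, adjusted p = 0.620), and reads outside the deleted exons, which are not given in the sources used here, check nothing about the allele.

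Hmgcs1 (chromosome 13, 119690462 to 119708086, GRCm38) stood at 455, 428 and 424 CPM in BNC and 216 and 189 CPM in NC, 2.15-fold apart (1.10 ± 0.17, adjusted p = 0.497). Msmo1 stood at 235, 229 and 201 CPM in BNC and 104 and 84.1 CPM in NC (1.24 ± 0.19, adjusted p = 0.497). Sqle stood at 257, 239.7 and 242 CPM in BNC and 117 and 129.7 CPM in NC (0.99 ± 0.16, adjusted p = 0.497). For each of the 3 the BNC libraries lay close together and well above both NC libraries, yet none passed the threshold. The common dispersion had a square root of 0.539 among the mouse libraries and 0.0311 in the drug table. Nsdhl stood at 98.5, 94.6 and 75.4 CPM in BNC and 38.7 and 31.8 CPM in NC (1.35 ± 0.22), and Srebf2 at 326, 367 and 405 CPM in BNC and 209.6 and 223 CPM in NC (0.76 ± 0.18). Insig2 stood at 25.4, 28.9 and 24.6 CPM in BNC and 43.4 and 45.9 CPM in NC (-0.76 ± 0.19, adjusted p = 0.548), lower in every BNC library, while Insig1 overlapped between the groups (0.38). Dhcr7 varied widely within both groups, with 17.1, 21.8 and 51.5 CPM in BNC and 9.34 and 45.04 CPM in NC.

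DESeq2 called 9 mouse members higher (Acat2, Hmgcs1, Mvd, Sqle, Lss, Cyp51, Msmo1, Nsdhl and Srebf2) and Insig2 lower, among 102 genes higher and 257 lower in all. BNC replicates 4 and 5 were far more alike (chi-square per degree of freedom 15) than either was to replicate 6 (331 and 313) or the NC libraries to each other (137). Summed as 1 library, a step added after seeing the data, they left 2 members called higher by DESeq2, Hmgcs1 (1.10, adjusted p = 0.0317) and Msmo1 (1.22, adjusted p = 0.0389), and none by edgeR. Mesothelial markers summed to 133 to 936 CPM in BNC and 975 to 2141 CPM in NC, fibroblast markers to 437 to 5740 CPM in BNC and 1863 to 4329 CPM in NC, and their part in these levels was not tested.

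**Figure D5:**
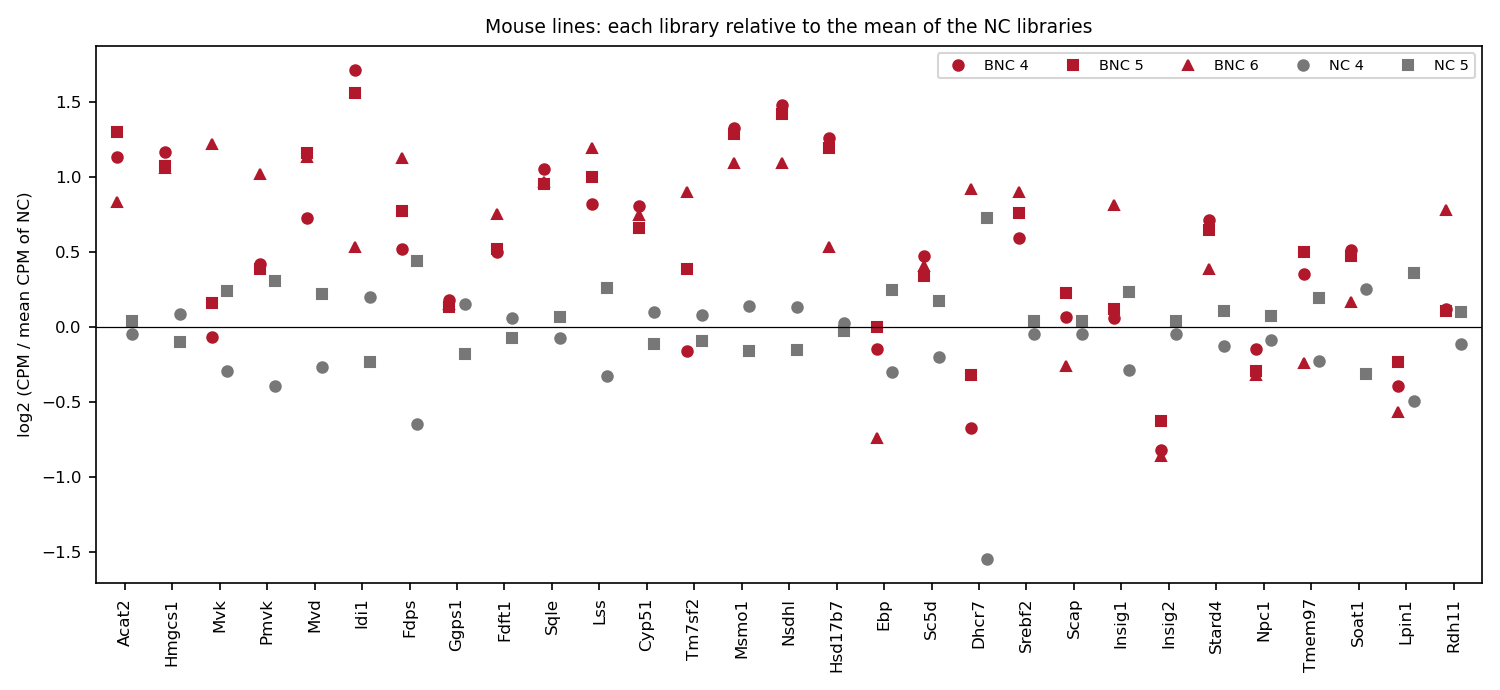
Log2 ratio of each mouse library to the mean NC level (y axis) for the 29 orthologs (x axis, pathway order), with BNC 4, 5 and 6 in red and NC 4 and 5 in grey. BNC points lie above both NC points for 17 genes, among them Hmgcs1, Sqle, Msmo1 and Srebf2, and below both for Insig2 and Npc1.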

How the data were processed

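Poly-A RNA of 21 cell libraries (8 drug, 8 knockdown and 5 mouse) was sequenced as single-end reads, per the labels' protocols, and the authors deposited 3 tables of raw counts per gene. TopHat2 2.0.12, HTSeq and DESeq2, and the mouse build mm10, are named in the submitters' processing notes, with no role. For the human tables no source used here gives a build; 99.94% of 60418 matched gene IDs overlapped their GRCh38 position, and 99.76% of 40254 mouse IDs theirs in GRCm38. The knockdown table held 1 row with no gene name and a count of 0, left out.

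In each table separately, genes with low counts were removed (filterByExpr), libraries were scaled by TMM, and edgeR 4.0.16 (R 4.3.3) quasi-likelihood tests were fitted over all groups, adjusted over all genes by Benjamini-Hochberg and called at an adjusted p under 0.05. The script was tried on counts simulated with known changes from the fitted spread of each table. That checks the code, not how well changes in these data are found. The SE is the log2 fold change divided by the square root of F. Depth limits precision for low genes: the lowest count of a human member in a library was 59 (HSD17B7, H2810 with DMSO). Tables were not compared by level.

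The members and gene lists were chosen with earlier results of these data known. All members are accounted for in text or in the heat map; values per library are given for the 3 called members of smallest p in each direction and for SREBF2, SCAP, INSIG1, INSIG2, HMGCS1, SQLE and SC5D, and other members shown per library (such as PMVK, and the mouse genes, where none was called) were picked after their values were seen. Genes outside the 29 are BAP1, EZH2, the 2 called genes of smallest p in a list, or markers named for being at 0. In the human tables same-numbered libraries deviated together little (correlations -0.0646 to 0.0979 with the knockdown, -0.00572 to 0.0617 with the drug). The mouse correlations were larger but of opposite sign, 0.336 and -0.306. The deviations of the 2 NC libraries mirror each other, and BNC 4 and 5 were much alike. Opposite signs would thus arise with or without pairing, and they cannot show whether the numbers pair the mouse libraries. Numbers were not taken to pair libraries in any table. Blocking the mouse edgeR fit by number took genes with an unadjusted p under 0.05 from 823 to 2116, with 1 gene called lower. Each result was recomputed with DESeq2 1.42.0, with RLE in place of TMM scaling, without the filter, from the 2 groups alone, blocked by replicate number, and leaving out every library in turn; summing BNC 4 and 5 and recomputing the counts over several responses were added after seeing the data.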

Additional observations from a re-analysis of the deposited data

Results flagged for a closer look

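The response to GSK126 differed between H2731 and H2810, by the interaction test, for 17 of the 29 genes, each with a higher change in H2731. In the mevalonate arm the difference was 1.08 for HMGCS1, 0.62 for ACAT2, 0.48 for MVD, 0.45 for IDI1 and 0.37 for MVK, and it was 0.53 for the branch-point enzyme FDPS (log2 scale, H2731 minus H2810). From squalene to lanosterol it was 0.76 for FDFT1, 0.60 for LSS and 0.45 for SQLE. After lanosterol it was 0.93 for MSMO1, 0.48 for NSDHL, 0.42 for EBP and 0.22 for SC5D. INSIG1 differed by 0.39, NPC1 by 0.33, RDH11 by 0.23 and LPIN1 by 0.19.

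The response to the BAP1 hairpin differed between MSTO-211H and H2810, by the same kind of test, for 14 of the 29 genes (log2 scale, MSTO-211H minus H2810). It was higher in MSTO-211H for TM7SF2, by 1.59, and for HMGCS1, by 0.28. It was lower for MSMO1 (-1.31), INSIG1 (-1.02), DHCR7 (-1.01), EBP (-0.76), ACAT2 (-0.57), SREBF2 (-0.53), SOAT1 (-0.52), PMVK (-0.46), FDFT1 (-0.44), IDI1 (-0.40), RDH11 (-0.31) and FDPS (-0.29). Within the H2810 hairpin groups replicates stood further apart than within MSTO-211H, and the part of that spread in these differences was not tested. Groups of 2 or 3 libraries are too small to look for single outlying samples.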

How the results depend on the processing

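No called member changed direction under any alternative run. Counts of members called higher or lower in 1 comparison, or higher in all 4 human responses, moved by over 1.5 times in these cases. With DESeq2, 1 member instead of 3 was lower with shBAP1 in H2810, 1 instead of 2 had a higher hairpin response in MSTO-211H than in H2810, 10 instead of 16 were higher and 1 instead of 2 lower with GSK126 in H2810, and 9 instead of 0 were higher and 1 instead of 0 lower in BNC cells, or 2 higher and 0 lower once BNC 4 and 5 were summed. DESeq2 also called 5 instead of 8 higher in all 4 human responses. With no filter on low counts, 1 instead of 2 had the higher hairpin response in MSTO-211H and 1 instead of 2 was lower with GSK126 in H2810. Opposite calls between lines, counted apart, went from 5 to 2 with the hairpin and from 2 to 1 with the drug under DESeq2. Without the filter they went from 5 to 3 and from 2 to 1. With the replicate block, which moved no other count of members higher or lower in 1 comparison by over 1.5 times, 1 member instead of 0 (SCAP, -0.15, adjusted p = 0.0422) was lower with GSK126 in H2731, MSMO1 was called lower with GSK126 in H2810 (-0.11, adjusted p = 0.0414), which made 3 instead of 2 members with opposite calls under the drug, and the drug difference of TM7SF2 was called (0.44, adjusted p = 0.0392). The cause of these moves was not tested. With 1 library left out, the counts ranged over 1 to 2 for the higher hairpin response in MSTO-211H, 1 to 2 lower with GSK126 in H2810, 0 to 1 lower with GSK126 in H2731, 24 to 25 higher with GSK126 in H2731, 11 to 13 higher with GSK126 in H2810, 13 to 17 for the higher drug response in H2731, 18 to 23 higher with shBAP1 in H2810, 12 to 13 higher with shBAP1 in MSTO-211H and 5 to 8 higher in all 4 human responses. These fits with a lone library assume that it varies like the other groups. The limits are 2 libraries in each human group, 1 shared spread per table and calls that a single library can end. In the mouse, the main edgeR fit called no gene.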
